A study of Homo sapiens with 20 samples.

Results

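MEIS1 and MEIS2 are homeobox genes, and their contacts within chromosomes were followed here through 10 states of human pluripotent cells and cells made from them. They are 2 of 20052 protein-coding genes of the annotation, of which 14271 had a contact within a chromosome in the matrix. A contact was assigned to a gene when the bait or the other-end interval overlapped the gene body widened by 1 kb. This gave 110 contacts for MEIS1 and 245 for MEIS2, 355 in all, of 182303 contacts within chromosomes and 766138 contacts overall. Both genes were chosen by their contact scores and calls in these same columns, so those values are given as a description and no test was made on them.

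MEIS1 and MEIS2 encode transcription factors of the TALE homeodomain class, which bind DNA together with PBX and HOX proteins. They act in the patterning of limb, heart, eye and hindbrain, MEIS1 also in blood stem cells, and both are typical targets of Polycomb repression in pluripotent cells. Poised enhancers bear Polycomb marks in such cells before they become active in the embryo, and Polycomb-bound sites are known to gather in the nucleus.

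Poised Enhancer Capture Hi-C enriches ligation products of DpnII fragments that hold poised enhancers, and each such captured fragment is called a bait. The matrix holds contacts of 28903 baits, and baits without a listed contact are not in it. Neuroectoderm (NE) and definitive endoderm (DE) had been made from HNES1 cells at day 14 of the transition. NE cells had been kept 10 days in A8301 and LDN193189 and sorted for CD56 without EpCAM, and DE cells had received activin A with PI-103, FGF2 and heparin, first together with CHIR99021 and BMP4 and then with LDN193189. H9 is a second human embryonic stem cell line, grown in the primed state in E8-type medium without feeders. HNES1 is a single human embryonic stem cell line, sampled in the naive state (day 0, in PD0325901, LIF, Gö6983 and XAV939, on irradiated mouse feeder cells until the last passage before the transition) and at days 1, 3, 5, 7, 10 and 14 after the change to medium with XAV939. Each condition had 2 libraries pooled into 1 score column, so replicates have no measured spread and conditions could not be tested against each other. The score is the CHiCAGO interaction score, a log-scaled weighted p-value, and scores of 5 or more were counted as calls. Every contact in the matrix reached that score in at least 1 condition, and read depth was unknown. The files used here hold no expression values, so cell identity was not checked against marker genes and contact scores say nothing about how strongly either gene was transcribed.

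On GRCh38, MEIS1 lies on the plus strand at chr2:66435125-66573869 (139 kb) and MEIS2 on the minus strand at chr15:36889204-37101311 (212 kb). Neither sits in a gene cluster. The nearest protein-coding neighbours of MEIS1, SPRED2 and ETAA1, lay 1003 kb and 823 kb away, and those of MEIS2, CDIN1 and TMCO5A, 79.0 kb and 833 kb away. The interval that holds the start of MEIS1 was chr2:66432673-66436185 (3.51 kb), and the one that holds the starts of MEIS2 was chr15:37097305-37103164 (5.86 kb). Neither of these intervals was itself a bait. They appeared as other ends of contacts from distant baits, and the promoters inside them are shown because the highest score of MEIS2 and the largest rise of MEIS1 at day 14 over naive cells fell on these intervals. The sequences run 250 bases before to 50 bases after each start, from RefSeq (GRCh38.p14), with CpG dinucleotides in capitals.
MEIS1, chr2:66434875-66435174, plus strand: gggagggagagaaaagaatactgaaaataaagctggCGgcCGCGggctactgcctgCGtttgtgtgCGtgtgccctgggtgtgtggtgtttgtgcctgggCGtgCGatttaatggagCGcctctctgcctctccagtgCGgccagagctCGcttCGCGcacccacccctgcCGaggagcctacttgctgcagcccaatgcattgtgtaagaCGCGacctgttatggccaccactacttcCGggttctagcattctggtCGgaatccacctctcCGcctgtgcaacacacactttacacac
MEIS2, chr15:37098647-37098946, minus strand: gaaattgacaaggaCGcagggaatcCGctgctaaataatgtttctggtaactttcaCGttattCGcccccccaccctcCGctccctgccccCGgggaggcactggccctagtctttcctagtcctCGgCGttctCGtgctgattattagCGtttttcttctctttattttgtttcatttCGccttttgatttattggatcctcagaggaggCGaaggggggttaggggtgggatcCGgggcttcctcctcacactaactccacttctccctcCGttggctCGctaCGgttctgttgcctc
MEIS2, chr15:37099057-37099356, minus strand: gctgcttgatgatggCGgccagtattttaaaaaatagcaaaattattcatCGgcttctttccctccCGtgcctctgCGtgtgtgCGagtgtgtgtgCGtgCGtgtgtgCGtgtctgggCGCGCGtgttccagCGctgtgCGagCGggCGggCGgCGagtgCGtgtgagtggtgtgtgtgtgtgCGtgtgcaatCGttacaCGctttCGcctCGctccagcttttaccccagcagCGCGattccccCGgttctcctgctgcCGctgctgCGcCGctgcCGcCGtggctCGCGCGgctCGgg

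The 3 promoters held 18, 16 and 35 CpG dinucleotides in 300 bases, in the order printed, against a median of 14.0 over 35116 promoters of the same length. Their GC content was 58.3%, 53.0% and 62.7%, against a median of 58.7%. The DpnII site GATC, its own reverse complement, occurred 2 times in the downstream one of the MEIS2 promoters (37098647-37098946), and 41.7% of all promoters held it. These 2 sites lie inside 1 interval of the matrix, so other-end intervals could hold several DpnII fragments. The MEIS-type motif TGACAG, searched on both strands, was in none of the 3 promoters, against 15.8% of all promoters. The HOX-PBX-type motif TGATNNAT occurred 1 time, again on either strand, in the same MEIS2 promoter, against 7.40% of all promoters.

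The baits from which these contacts were listed lay in 3 clusters at each gene. Other baits nearby, without a contact assigned to the gene, are not counted here. At MEIS1, 9 baits lay around the start (chr2:66423810-66445721), 5 in the body (chr2:66507564-66510056) and 6 just beyond the end (chr2:66576753-66583184). At MEIS2, 9 baits lay around the start (chr15:37092100-37115657), 3 in the body (chr15:37044537-37047478) and 12 around the end (chr15:36878314-36899127). In all, 20 baits took part in the contacts of MEIS1 and 24 in those of MEIS2. The baits beyond the end of MEIS1 fell outside the gene body, and entered only through contacts that reached into it.

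Contact lengths centred near the length of each gene. The median distance was 138 kb at MEIS1 (range 27.2 to 780 kb) and 207 kb at MEIS2 (range 19.4 to 1364 kb), against 228 kb over all contacts within chromosomes. Of the MEIS1 contacts, 78 of 110 spanned 100 to 500 kb, and of the MEIS2 contacts 219 of 245. The gene lay at the bait only in 50 contacts of MEIS1, at the other end only in 27, and at both ends in 33. For MEIS2 these counts were 96, 55 and 94. Many calls were close to the threshold. Of 179 calls at MEIS1, summed over the 10 conditions, 90 scored from 5 to 6, and a further 58 scores from 4 to 5 were not called. Of 407 calls at MEIS2, 166 scored from 5 to 6, and 144 scores from 4 to 5 were not called.

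Contacts of both genes recurred between conditions. At MEIS1, 29 of 110 contacts (26.4%) were called in 2 or more conditions, and at MEIS2 74 of 245 (30.2%), while the share over all contacts within chromosomes was 14.2%, and 16.7% for contacts of 100 to 300 kb. The highest score was 10 or more in 7 contacts of MEIS1 (6.36%) and 18 of MEIS2 (7.35%), against 2.10% of all contacts and 2.44% of those of 100 to 300 kb. Those shares use the scores for which the genes were picked and are given for scale only. Here and below, shares of all contacts refer to contacts within chromosomes.

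During the transition, MEIS1 had 8 called contacts in naive cells, 20 at day 1, 32 at day 3, 26 at day 5, 24 at day 7, 13 at day 10 and then 23 at day 14. MEIS2 had 22 in naive cells, 37 at day 1, 43 at day 3, 52 at day 5, 41 at day 7, 27 at day 10 and then 48 at day 14. Of these time points, naive cells were the lowest and day 10 the next lowest for both genes, and MEIS1 peaked at day 3 and MEIS2 at day 5. Over all contacts within chromosomes the share called was 10.0% in naive cells, 10.1% at day 1, 12.4% at day 3, 11.7% at day 5, 10.2% at day 7, 10.3% at day 10 and then 11.2% at day 14. Of the genes' own contacts, MEIS1 had 29.1% called at day 3 and 7.27% in naive cells, and MEIS2 21.2% at day 5 and 8.98% in naive cells. Of the 7 time points, both genes were below the share of all contacts in naive cells only.

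The 2 genes parted in the other cells. MEIS1 had 15 called contacts in DE, 12 in NE and 6 in H9 cells, against 23 at day 14. MEIS2 had 50 in DE, 39 in NE and 48 in H9 cells, against 48 at day 14. H9 cells were thus the lowest of the 10 conditions for MEIS1, and level with day 14 for MEIS2. The share of all contacts called was 16.2% in DE, 17.9% in NE and 13.0% in H9 cells, and of the genes' own contacts 13.6%, 10.9% and 5.45% at MEIS1 and 20.4%, 15.9% and 19.6% at MEIS2, in the same order. By calls over all conditions MEIS2 ranked 13th and MEIS1 126th of the 14271 linked genes, and in H9 cells alone MEIS2 ranked 15th and MEIS1 972nd.

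**Figure D1:**
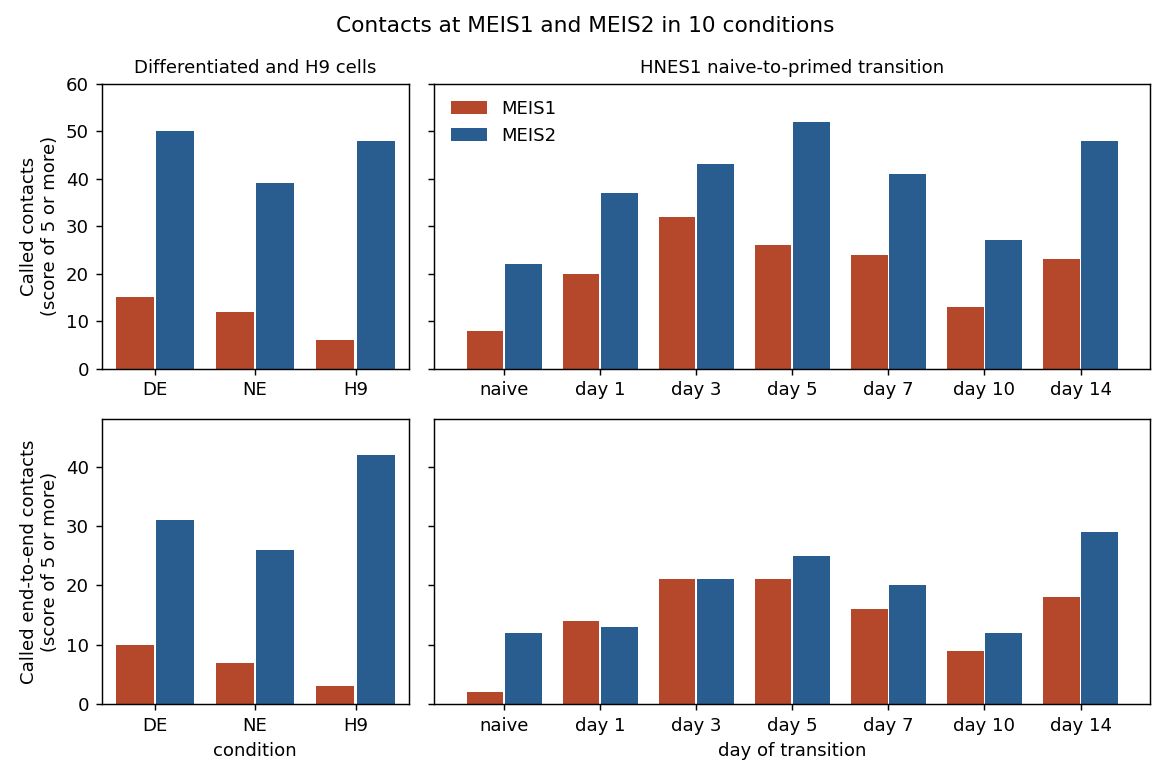
Number of called contacts (upper row, score of 5 or more) and of called end-to-end contacts (lower row) at MEIS1 and MEIS2, for DE, NE and H9 cells on the left and the 7 time points of the HNES1 transition on the right. Each bar is 1 count from a pooled column, without error. MEIS1 has 6 contacts in H9 cells, against 23 at day 14, while MEIS2 has 48 in both.

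Day 14 was first set against naive cells, the comparison of the primed with the naive state in 1 cell line. Shares below give the first condition's calls as a percentage of the calls of both, with an exact Clopper-Pearson 95% interval that describes counting error only and is not read as a test, because the genes were chosen on these calls. Contacts of a gene share fragments, so they are not independent and the intervals are too narrow by an unknown amount. MEIS1 had 23 calls at day 14 and 8 in naive cells, a day 14 share of 74.2% (55.4 to 88.1). MEIS2 had 48 at day 14 and 22 in naive cells, a share of 68.6% (56.4 to 79.1). Over all contacts within chromosomes the day 14 share was 52.9%. At MEIS1, 22 contacts (20.0%) were gained, 7 (6.36%) lost and 1 (0.909%) kept, and at MEIS2, 44 (18.0%) were gained, 18 (7.35%) lost and 4 (1.63%) kept. In this comparison 10.6% of all contacts were gained, 9.34% lost and 0.682% kept. When neighbouring other ends of a bait within 10 kb were merged, the day 14 share was 63.6% (40.7 to 82.8) at MEIS1 and 62.5% (48.5 to 75.1) at MEIS2.

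H9 cells were next compared with day 14 cells, 2 primed states of different cell lines. MEIS1 had 6 calls in H9 cells and 23 at day 14, an H9 share of 20.7% (7.99 to 39.7), whereas over all contacts the H9 share was 53.7%. MEIS2 had 48 calls in each, a share of 50.0% (39.6 to 60.4). The equal totals of MEIS2 came from largely different contacts, with 37 gained, 37 lost and 11 kept. At MEIS1, 3 were gained, 20 lost and 3 kept. The H9 share of MEIS1 was 26.3% (9.15 to 51.2) with merged other ends and 40.6% (28.5 to 53.6) at a threshold of 3. Of all contacts 12.1% were gained, 10.3% lost and 0.967% kept. Cell line, culture history and library pool cannot be told apart in this comparison.

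The lineage cells were each compared with the day 14 cells they came from, and share that column. MEIS1 had 15 calls in DE and 23 at day 14, a DE share of 39.5% (24.0 to 56.6), and MEIS2 had 50 in DE and 48 at day 14, a share of 51.0% (40.7 to 61.3). The DE share over all contacts was 59.1%. MEIS1 had 12 calls in NE and 23 at day 14, an NE share of 34.3% (19.1 to 52.2), and MEIS2 had 39 in NE and 48 at day 14, a share of 44.8% (34.1 to 55.9), while the NE share over all contacts was 61.4%. All 4 shares were thus below those of all contacts, which is a description only, because the genes were chosen on these calls. The interval of MEIS2 in DE took in the 59.1%, and none of the 4 intervals is read as a test. At equal numbers of contacts per condition, the NE share was 20.7% (7.99 to 39.7) at MEIS1, from 6 and 23 calls, and the DE share 47.4% (35.8 to 59.2) at MEIS2, from 36 and 40. At MEIS1, DE gained 11 contacts, lost 19 and kept 4, and NE gained 8, lost 19 and kept 4. At MEIS2, DE gained 39, lost 37 and kept 11, and NE gained 29, lost 38 and kept 10. Over all contacts, 15.1% were gained in DE, 10.1% lost and 1.13% kept, and in NE 16.7%, 9.98% and 1.26%.

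Much of the signal at each gene joined its start to its end. A contact was called end-to-end when 1 interval lay within 20 kb of the gene's start, the other within 20 kb of its end, and the contact overlapped the gene window. This class, chosen after the contacts had been seen, held 53 of 110 contacts of MEIS1 (48.2%) and 99 of 245 of MEIS2 (40.4%). MEIS1 had 2 end-to-end calls in naive cells, 14 at day 1, 21 at day 3, 21 at day 5, 16 at day 7, 9 at day 10 and then 18 at day 14. MEIS2 had 12 in naive cells, 13 at day 1, 21 at day 3, 25 at day 5, 20 at day 7, 12 at day 10 and then 29 at day 14. By this count MEIS1 was lowest in naive cells among the 7 time points, and its later counts ranged from 9 to 21. Over all contacts the share called was 10.0% in naive cells and ranged from 10.1% to 12.4% later. Some naive scores of MEIS1 lay just below the threshold, such as 4.68 for PE16256 and 4.81 for PE16261, both with chr2:66564399-66569856. The low naive count therefore does not show that these contacts were absent. MEIS2 already had 12 in naive cells, as many as at day 10. In the other cells MEIS1 had 10 in DE, 7 in NE and 3 in H9 cells, against 18 at day 14, and MEIS2 had 31 in DE, 26 in NE and 42 in H9 cells, against 29 at day 14. All 3 end-to-end calls of MEIS1 in H9 cells were also called at day 14, with 0 gained and 15 lost, while MEIS2 gained 31, lost 18 and kept 11.

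**Figure D2:**
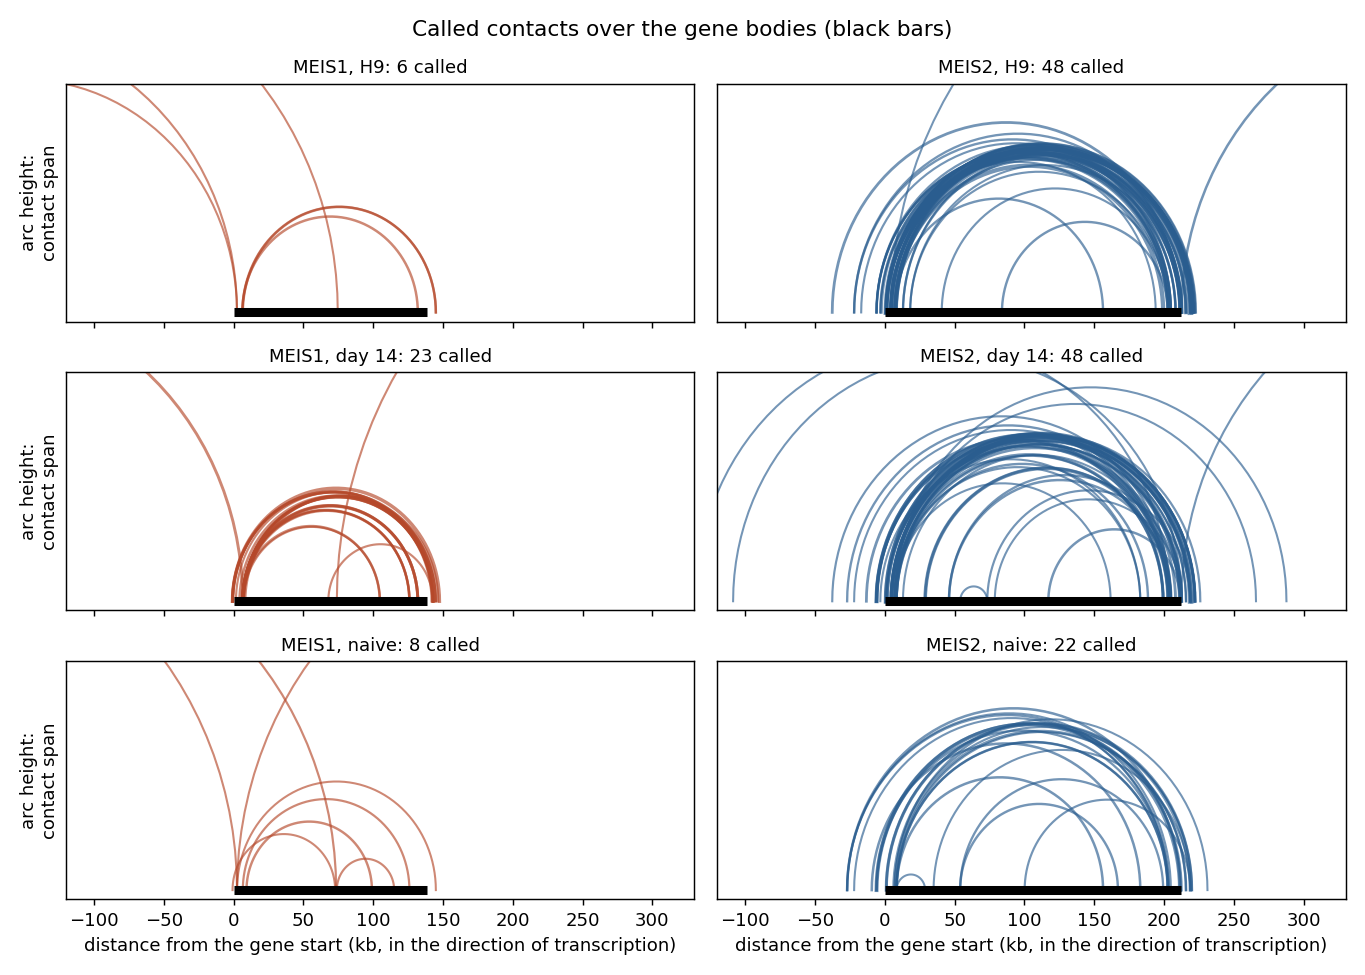
Called contacts drawn as arcs over MEIS1 (left) and MEIS2 (right) in H9, day 14 and naive cells, against distance from the gene start in kb along the direction of transcription. Black bars are the gene bodies, line width grows with the score, and arcs that leave the panel reach further than the axis. Bundles of arcs join the start of the gene to its end at day 14 in both genes and in H9 cells at MEIS2, where 42 end-to-end contacts were called, against 3 at MEIS1.

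For scale, the same count was made for every protein-coding gene of 100 to 300 kb. Of 2583 such genes, 1356 had a bait within 20 kb of an end, and their median was 1 end-to-end call over all conditions, with 641 genes at 0. MEIS2 ranked first with 231 calls and MEIS1 second with 121, followed by NFIX with 91 and SAMD4A with 78. The ranks depend on bait density. MEIS2 had 21 baits near its ends and MEIS1 had 20, against a median of 2. At MEIS1 this count, 13 near the start and 7 near the end, also took in baits without a contact assigned to the gene. Per bait, MEIS2 had 11.0 calls (rank 4) and MEIS1 6.05 (rank 35), with a median of 0.200, and NIBAN1 (25.0), MET (13.0) and ABTB2 (11.5) stood above both. Among the 230 genes with baits near both ends, the median was 2 calls and 0.414 calls per bait. Per bait, MEIS2 ranked 1 and MEIS1 ranked 14 in that set. Among the 33 genes with 10 or more such baits, where the median was 4 calls, MEIS2 and MEIS1 ranked 1 and 2 per bait. By condition, MEIS2 ranked first in 9 conditions and second at day 1, level with MEIS1 at day 3 (21 calls each). MEIS1 ranked 24th in naive cells, first at days 1 and 3 and second at days 5, 7, 10 and 14, and ranked 5th in DE, 15th in NE and 25th in H9 cells.

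**Figure D3:**
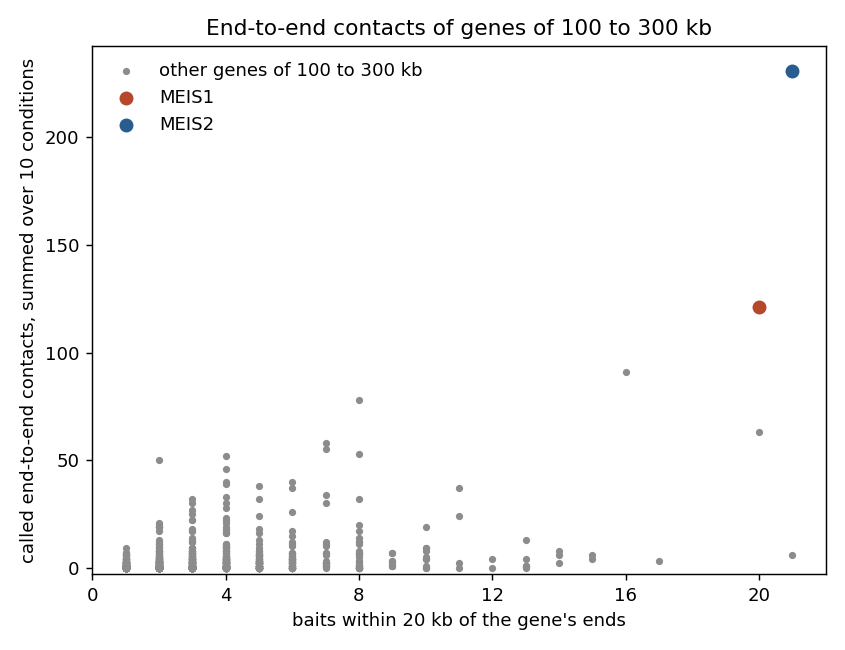
Called end-to-end contacts summed over the 10 conditions, against the number of baits within 20 kb of the gene's ends, for 1356 protein-coding genes of 100 to 300 kb. Each point is a gene. MEIS2 (231 calls, 21 baits) and MEIS1 (121 calls, 20 baits) lie above the other genes, of which most have few baits and few calls.

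The start of MEIS2 gave the strongest contacts. Its start interval was contacted by 12 baits, all of them in the cluster at the end of the gene, 202 to 222 kb away. The number called was 2 in naive cells, 0 at day 1, 4 at day 3, 8 at day 5, 3 at day 7, 3 at day 10 and then 5 at day 14. It was 7 in DE, 10 in NE and 10 in H9 cells, against 5 at day 14. As shares relative to day 14, these were 58.3% (27.7 to 84.8) for DE and 66.7% (38.4 to 88.2) for both NE and H9. The shares over all contacts, 59.1% for DE, 61.4% for NE and 53.7% for H9, lay within these intervals. The bait PE10178 (chr15:36881956-36883061, 218 kb from the start interval) was called in 9 conditions. Its score was 9.83 in naive cells, 4.50 at day 1, 14.8 at day 3, 30.3 at day 5, 7.09 at day 7, 18.7 at day 10 and then 18.1 at day 14. It was 14.4 in DE, 8.64 in NE and 19.6 in H9 cells, against that 18.1 at day 14. Day 1 was the one condition below the threshold for this contact. The neighbouring bait PE10177 was called in 7 conditions and scored 1.63 in DE, against 15.9 at day 14, its highest score. PE10174, at the far edge of that cluster, scored 7.35 in NE and 0 at day 14, the largest rise of any MEIS2 contact in NE relative to day 14.

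The start interval of MEIS1 was contacted by 6 baits, 5 of them beyond the gene's end, 143 to 148 kb away. The number called was 1 in naive cells, 2 at day 1, 2 at day 3, 3 at day 5, 3 at day 7, 1 at day 10 and then 4 at day 14. It was 1 in DE and 0 in both NE and H9 cells, against 4 at day 14. As shares relative to day 14, these were 20.0% (0.505 to 71.6) for DE and 0% (0 to 60.2) for both NE and H9. The shares over all contacts were 59.1% for DE, 61.4% for NE and 53.7% for H9. With so few calls the intervals are wide, and they are not read as a test. The 1 contact called in naive cells came from the bait in the gene body, PE16266, which scored 0.785 at day 14 and 5.23 in naive cells. PE16274 scored 3.77 in H9 cells, 10.3 at day 14 and 0 in naive cells, the largest rise of any MEIS1 contact at day 14 over naive cells. PE16275 was called at days 1, 3, 5, 7 and 14, with 8.21 at day 14 and 0 in naive cells. Counted from the bait side only, the 6 baits beyond the end had 3 calls in DE and 0 in both NE and H9 cells, against 9 at day 14, and 0 in naive cells. Over all contacts the share called was 16.2% in DE, 17.9% in NE, 13.0% in H9 cells, 11.2% at day 14 and 10.0% in naive cells. In NE, PE16275 was also reached as the other end of a contact called from PE16261, near the gene's start (5.01).

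**Figure D4:**
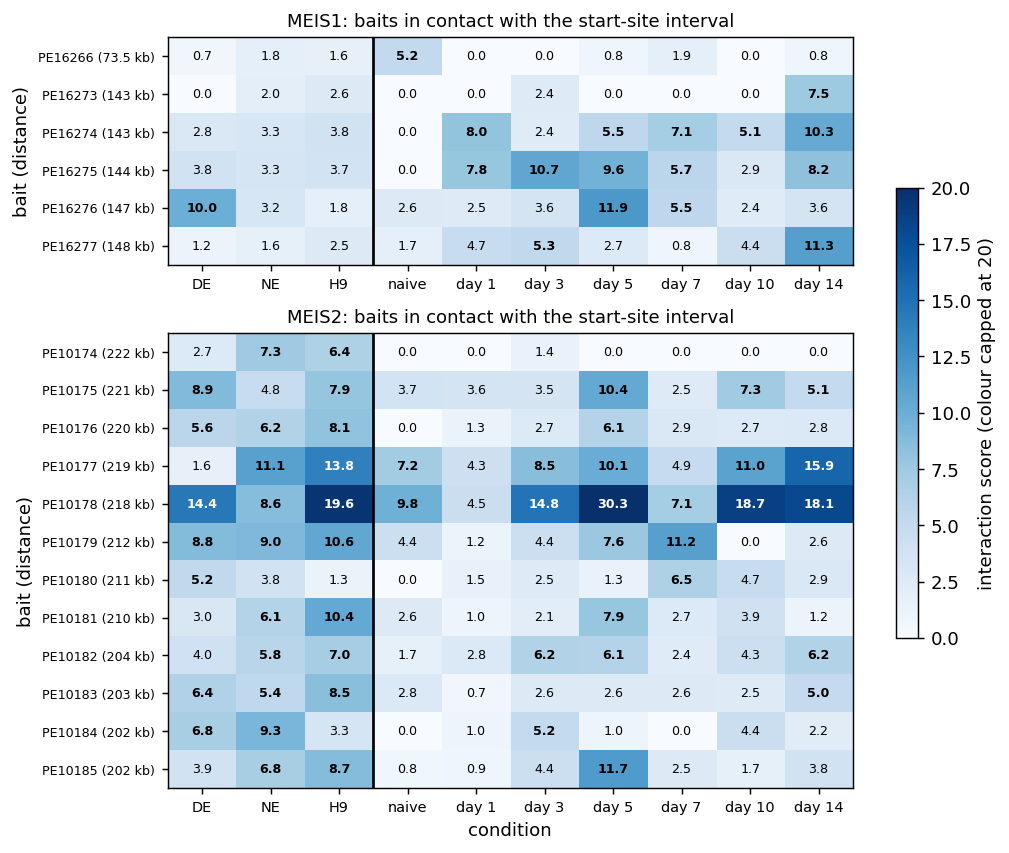
Interaction scores between the start interval of MEIS1 (above) or MEIS2 (below) and each bait in contact with it, with the distance in kb in brackets. Columns are DE, NE and H9 cells and, right of the black line, the HNES1 time points, and scores of 5 or more are in bold. PE10178 is dark in nearly all conditions with 30.3 at day 5, and the baits beyond the end of MEIS1 score 5 or more mainly from day 1 to day 14.

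Other contacts of the same kind ran the opposite way, from baits near the start to intervals near the end. At MEIS1 the highest score of all, 18.4 at day 3, joined bait PE16261, 6.65 kb inside the gene, to chr2:66578790-66581304, at 138 kb. That contact scored 8.18 in DE, 6.81 in NE and 6.97 in H9 cells, against 6.18 at day 14 and 3.96 in naive cells. The MEIS1 contact called in the most conditions, 8 of 10, joined the adjacent bait PE16260 to chr2:66564399-66569856, and was missing from naive cells (2.43) and day 7 (4.21). At MEIS2, bait PE10190 (chr15:37093622-37094751) reached chr15:36899128-36904666 with 15.0 in H9 cells, 11.6 in DE and 5.26 in NE, against 9.66 at day 14. Running from end to start instead, bait PE10181, at the end of MEIS2, was called in 8 conditions in contact with chr15:37104751-37109683, upstream of the start. That contact scored 4.23 in H9 cells but 13.5 both at day 14 and in naive cells. Calls were concentrated on few intervals, since the 4 most contacted other-end intervals held 81 of 179 calls at MEIS1 (45.3%) and 134 of 407 at MEIS2 (32.9%). Scores of 10 or more were rarer. MEIS1 had 0 in DE, NE and H9 cells, 2 at day 14 and 0 in naive cells, and MEIS2 had 4 in DE, 2 in NE, 7 in H9 cells, 6 at day 14 and 1 in naive cells. Over all contacts these shares were 0.444% in DE, 0.572% in NE, 0.335% in H9 cells, 0.230% at day 14 and 0.184% in naive cells.

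Baits in the gene bodies gave at most 8 calls in any condition. Counted from the bait side, the 5 baits of the MEIS1 body had 8 calls at day 3, 1 at day 14 and 3 in naive cells. At MEIS2, the 3 baits of the body had 8 calls in DE, 2 in NE and 0 in H9 cells, against 1 at day 14. Of the 8 calls in DE, 6 came from PE10187 (chr15:37046921-37047165), which had 1 in NE and 0 at day 14. Over all contacts the share called was 16.2% in DE, 17.9% in NE and 13.0% in H9 cells, against 11.2% at day 14. It was 12.4% at day 3 and 10.0% in naive cells. These body counts are small and each comes from 1 pooled column.

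Contacts between baits, where both ends hold captured fragments, formed groups at both genes. Counted once per pair, MEIS2 had 1 called pair in naive cells, 0 at day 1, 4 at day 3, 1 at day 5, 5 at day 7, 2 at day 10 and then 8 at day 14. It had 7 in DE, 2 in NE and 8 in H9 cells, against 8 at day 14. Relative to naive cells, day 14 held 88.9% (51.8 to 99.7) of the pair calls, and 75.0% (42.8 to 94.5) with the window widened by 10 kb. No such share was computed over all bait pairs. MEIS1 had 0 pairs in naive cells and at day 1, 5 at day 3, 1 at day 5, 3 at day 7, 2 at day 10 and then 2 at day 14. It had 0 in DE, 1 in NE and 0 in H9 cells, against 2 at day 14. Baits joined by called contacts were then grouped, with pairs outside the gene window included. Over the whole matrix, such groups numbered 83 in naive cells, 87 at day 1, 162 at day 3 and 173 at day 5. They numbered 116 at day 7, 120 at day 10, 171 at day 14, 229 in DE, 244 in NE and 208 in H9 cells. Group numbers were thus higher at day 14 than in naive cells over the whole matrix too. The group at MEIS2 held 13 baits over 231 kb in DE, where it was the largest of 229 groups, 6 baits in NE and 10 in H9 cells, against 8 at day 14 (second of 171 groups) and 2 in naive cells. The largest at MEIS1 held 8 baits over 153 kb, at day 3, against 3 at day 14. In each gene, these groups joined baits near the start to baits near the end. The DE group at MEIS2 also took in a body bait, PE10186, 56.2 kb from the start, through a pair that scored 5.87.

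A pair of baits can be listed from either bait, so some pairs had a score from each side. When both listings of a pair were present and at least 1 was called in a condition, both were called in 4 of 5 cases at MEIS1 (80.0%) and 10 of 16 at MEIS2 (62.5%, 35.4 to 84.8), against 82.3% over all contacts within chromosomes. The median difference between listings was 2.06 at MEIS2 and 0.849 at MEIS1, against 1.00 over all. Both listings come from the same pooled column, so this difference does not measure a spread between libraries. Between neighbouring time points, few calls were shared. Of the calls at day 1, 1 of 20 at MEIS1 (5.00%) and 3 of 37 at MEIS2 (8.11%) were also called in naive cells, against 6.52% over all contacts. Of the calls at day 3, 5 of 32 at MEIS1 (15.6%) and 3 of 43 at MEIS2 (6.98%) were also called at day 1, against 6.25%. At day 1 the share of MEIS1 rests on 1 call, and the share of MEIS2 was close to that of all contacts at both steps. Of the calls at day 5, 7 of 26 at MEIS1 (26.9%) and 12 of 52 at MEIS2 (23.1%) were also called at day 3, against 7.92%. Of the calls at day 7, 8 of 24 at MEIS1 (33.3%) and 10 of 41 at MEIS2 (24.4%) were also called at day 5, against 7.23%. Of the calls at day 10, 2 of 13 at MEIS1 (15.4%) and 5 of 27 at MEIS2 (18.5%) were also called at day 7, against 7.01%. Of the calls at day 14, 7 of 23 at MEIS1 (30.4%) and 7 of 48 at MEIS2 (14.6%) were also called at day 10, against 7.27%. Called at 5 or more of the 7 time points were 4 contacts of MEIS1 (3.64%) and 3 of MEIS2 (1.22%), against 0.327% of all contacts.

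Few contacts reached another protein-coding gene. None of the far ends of MEIS1 contacts overlapped one. At MEIS2, 5 contacts reached CDIN1, a gene linked to red cell development, with 5 calls over all conditions, and 1 contact reached DPH6, a gene of diphthamide synthesis, with 1 call in DE. Long non-coding RNA genes beside the genes were reached more often. The body of LINC01798, just beyond the end of MEIS1, took 83 calls in 43 contacts, with 13 at day 14 and 1 in naive cells. At MEIS2, LOC145845 beyond the end took 105 calls in 53 contacts and LOC124903465 at the start took 87 in 31. These counts overlap with those of the end-to-end contacts.

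Other genes were ranked by how closely their number of called contacts followed each gene over the 10 conditions, as a description without a test. The Pearson correlations are the highest of 3345 and 3344 genes, share the same libraries and depth, and therefore lie high by selection. For MEIS1 these were METTL1, a tRNA methyltransferase (0.931), CYP27B1, an enzyme that activates vitamin D (0.895), MARCHF9, a ubiquitin ligase (0.885), HOXD9, a HOX gene (0.854), and SETBP1, which encodes a SET-binding protein (0.847). METTL1, CYP27B1 and MARCHF9 all lie on chromosome 12, and whether they share contacts with one another was not examined. METTL1 had at most 7 calls in a condition (day 3) and 0 in DE, NE and H9 cells, so its correlation rests on small counts. For MEIS2 they were OPCML, a cell adhesion molecule (0.894), SKAP2, an adaptor protein (0.856), SPEG, a muscle kinase (0.856), EGFR, a growth factor receptor (0.831), and RIIAD1 (0.820). Between MEIS1 and MEIS2 the correlation was 0.405.

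The other genes of the TALE class and the HOX genes, whose products bind DNA with MEIS proteins, were counted in the same way. Of 16 other TALE genes 14 had a contact, all but PBX2 and TGIF2. Between day 14 and naive cells, 4 had more called contacts and 1 fewer, with a median of 1 at day 14 and 0 in naive cells, while over all linked genes 29.0% had more and 25.5% fewer. PKNOX2, a close relative of MEIS, had the most contacts of these (252), with 62 calls in DE, 64 in NE and 52 in H9 cells, against 28 at day 14 and 18 in naive cells. MEIS3, the third MEIS gene, had 20 contacts, with 2 calls in DE, 4 in NE and 2 in H9 cells, against 2 at day 14 and 2 in naive cells. In H9 cells relative to day 14, 5 TALE genes had more and 2 fewer (31.4% and 24.9% of all genes), in DE 8 and 2 (37.2% and 21.4%), and in NE 8 and 3 (41.6% and 18.9%). MEIS1 had fewer calls in all 3, as had a minority both of the TALE genes and of all genes.

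All 39 HOX genes had contacts, and neighbouring HOX genes share many of them. Between day 14 and naive cells 34 had more and 3 fewer, with a median of 7 at day 14 and 3 in naive cells. In H9 cells 28 had more than at day 14 and 9 fewer, in DE 15 more and 21 fewer, and in NE 12 more and 23 fewer. The median was 11 in H9 cells, 6 in DE and 7 in NE, against 7 at day 14. Both MEIS genes and most HOX genes had more calls at day 14 than in naive cells, while in H9 cells relative to day 14 MEIS1 had fewer and most HOX genes more.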

How the data were processed

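The 20 capture Hi-C libraries covered 10 conditions. The authors deposited a matrix of CHiCAGO scores, per the labels, with 1 pooled score column per condition and 0 columns of other samples. Coordinates were on GRCh38 per the submitters' processing notes. The aligner, the caller's version, the binning of other ends and the filters are not given in the sources used here. Depth is unknown, and 36.3% of scores within chromosomes were 0. Bait positions, other ends and scores were used as deposited, without normalisation between conditions. Genes and promoters came from RefSeq (GRCh38.p14), matched by symbol for both genes. A contact was called at 5 or more, and alternatives were thresholds of 3 and 10, other gene windows, merged or single listings, a score margin, equal numbers of contacts and the gene at the other end only. The contact counting was tested on simulated data. The named contacts were, per gene, the 5 with the highest score, the 5 called in most conditions, and the largest rise and fall in asinh(score) per comparison, of which the text gives a part. The end-to-end class, the start intervals, body baits and single baits of those groups were chosen after the scores had been seen. The members and lists were chosen with earlier results of these data known. Software was scipy 1.17.1, pandas 2.3.3, networkx 3.6.1, matplotlib 3.10.9 and numpy 2.4.6 under Python 3.11.15.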

Additional observations from a re-analysis of the deposited data

Results flagged for a closer look

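Contacts that joined the 2 genes to other chromosomes were left out of the counts above, and they were called in every condition. MEIS1 had 15 such calls in naive cells, 16 at day 1, 9 at day 3, 17 at day 5, 11 at day 7, 11 at day 10 and then 10 at day 14. It had 82 in DE, 92 in NE and 27 in H9 cells. MEIS2 had 27 in naive cells, 10 at day 1, 33 at day 3, 17 at day 5, 20 at day 7, 29 at day 10 and then 24 at day 14. It had 121 in DE, 130 in NE and 32 in H9 cells. The matrix lists only contacts called in at least 1 condition, so calls among them were bound to occur. DE and NE stood above every other condition at both genes, and over the whole matrix too. Of the 290 such contacts of MEIS1, 28.3% were called in DE, 31.7% in NE and 9.31% in H9 cells, against 3.45% at day 14. Of the 443 of MEIS2 it was 27.3% in DE, 29.3% in NE and 7.22% in H9 cells, against 5.42% at day 14. Over all 583835 contacts between chromosomes the share was 32.1% in DE, 26.6% in NE and 6.59% in H9 cells, against 5.38% at day 14, and from 4.35% to 5.46% at the 7 time points, so the higher counts in DE and NE were shared by the matrix as a whole.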

How the results depend on the processing

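Of 101 values of the 12 shares under other settings, 90 stayed within the interval of the reported share and 11 moved out of it. In 4 of the 101 values the larger count changed sides, all in DE relative to day 14 at MEIS2. The DE share there was 51.0% as reported and 40.0% at a threshold of 10, 47.4% (36 and 40) at equal numbers of contacts and 49.3% (34 and 35) with merged other ends, and for bait pairs it was 46.7% (7 and 8) as reported and 57.1% (12 and 9) with the window widened by 10 kb. At a threshold of 10 few calls were left. MEIS1 then had shares of 100% (2 calls at day 14 and 0 in naive cells), 0% for H9 (0 and 2 at day 14), 0% for DE and 0% for NE. MEIS2 had 85.7% for day 14 against naive cells (6 and 1), 40.0% for DE (4 and 6), 25.0% for NE (2 and 6) and, for bait pairs in H9 cells, 100% (1 and 0). The other 3 bait-pair shares had no value there. At a threshold of 3 the H9 share of MEIS1 was 40.6% (26 and 38, interval 28.5 to 53.6). With the gene at the other end only, MEIS1 had 5.56% for H9 (1 and 17) and 15.0% for NE (3 and 17). Merged other ends gave 63.6% (40.7 to 82.8) at MEIS1 and 62.5% (48.5 to 75.1) at MEIS2 for day 14 against naive cells and 26.3% (9.15 to 51.2) at MEIS1 for H9. With the window widened by 10 kb, MEIS2 bait pairs were at 75.0% (42.8 to 94.5) for day 14 against naive cells and the NE share of MEIS1 was 33.3% (21.4 to 47.1). These settings leave fewer or weaker contacts by construction, or add contacts outside the gene. The intervals describe counting error and are not tests. Chosen after seeing the data, end zones of 10 and 40 kb gave 115 and 130 end-to-end calls at MEIS1 (ranks 2 and 4) and 187 and 297 at MEIS2 (rank 1 in both), and a threshold of 10 gave 7 (rank 3) and 33 (rank 1). No paired analysis was possible because each condition has 1 pooled column. Unknown depth and the lack of replicates limit every comparison here.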
